A study of Mus musculus with 6 samples.

Results

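The genes described here are the bile acid receptor FXR (Nr1h4), the repressor SHP (Nr0b2) and the main hepatocyte transporters that carry bile salts and bile lipids. They were chosen by name as 10 gene symbols: Nr1h4, Nr0b2, Abcb11, Abcb4, Abcc2, Atp8b1, Abcc3, Slc10a1, Slco1a1 and Slco1b2. All 10 were found among the 22180 genes with a probe set that names a single gene, each with 1 such probe set. All 10 were also among the 11090 genes whose mean signal lay in the upper 50%, which were tested. Liver RNA from 6 male mice had been hybridised to whole-transcript Affymetrix arrays. In 3 of them the G protein-coupled receptor gene Gpr146 was knocked out in the whole body (KO), and 3 littermates were wild type (WT). Every animal was on the C57BL/6J background, ate chow, was 24 weeks old, and gave its liver after 16 hours without food and then 6 hours of refeeding. Each array holds the liver of 1 mouse. The labels do not say which stretch of Gpr146 was removed. Values are log2 signals as deposited, and a difference is KO minus WT on that scale, so that a difference of 1 would be a doubling of signal.

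Bile acids are made from cholesterol in hepatocytes, secreted across the canalicular membrane into bile, reabsorbed in the gut and taken up again from portal blood across the basolateral membrane. FXR is the nuclear receptor that bile acids activate. It induces SHP, a nuclear receptor that lacks a DNA-binding domain and represses bile acid synthesis, and it induces the bile salt export pump. Refeeding empties the gallbladder and brings bile acids back to the liver. These mice were sampled after refeeding, but their bile acids are not among the values used here.

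The promoters of 4 members are shown because they carry, or lack, the sequence to which FXR is known to bind. Of all members, Slco1a1, Nr0b2 and Abcb11 had the largest differences between genotypes and Slco1b2 the smallest. FXR binds with its partner RXR to an inverted repeat of the hexamer AGGTCA with 1 base between the copies, AGGTCANTGACCT. From the RefSeq promoter table of GRCm38.p6, windows of 8 of the 10 members were searched, 9 in all. The search of member windows did not cover every chromosome, and no window of Abcc3 or Atp8b1 was searched. The 250 bases before each start site were searched for the inverted repeat with up to 1 mismatch, which reads the same on both strands, and for AGGTCA alone on both strands without mismatch. A hexamer can lie inside an inverted repeat. Capitals mark the matches, and each sequence runs 5′ to 3′ on the strand of its gene and ends at the base before the start site.
Abcb11 promoter, chr2:69342617-69342866, minus strand: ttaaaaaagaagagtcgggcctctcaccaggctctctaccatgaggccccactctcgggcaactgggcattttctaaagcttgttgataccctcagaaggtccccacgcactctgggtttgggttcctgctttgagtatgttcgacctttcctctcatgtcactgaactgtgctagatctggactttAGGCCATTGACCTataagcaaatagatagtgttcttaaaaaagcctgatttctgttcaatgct
Slco1b2 promoter, chr6:141629268-141629517, plus strand: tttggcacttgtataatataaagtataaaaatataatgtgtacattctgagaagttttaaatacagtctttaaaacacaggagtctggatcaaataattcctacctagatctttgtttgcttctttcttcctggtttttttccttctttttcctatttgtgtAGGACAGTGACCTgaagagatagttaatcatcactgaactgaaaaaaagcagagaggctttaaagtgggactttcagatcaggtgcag
Nr0b2 promoter, chr4:133553126-133553375, plus strand: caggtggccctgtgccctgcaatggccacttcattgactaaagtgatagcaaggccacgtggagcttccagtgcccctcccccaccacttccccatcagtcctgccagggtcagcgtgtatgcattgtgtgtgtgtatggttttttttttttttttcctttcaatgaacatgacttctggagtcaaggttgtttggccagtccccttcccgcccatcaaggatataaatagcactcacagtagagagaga
Slco1a1 promoter, chr6:141946963-141947212, minus strand: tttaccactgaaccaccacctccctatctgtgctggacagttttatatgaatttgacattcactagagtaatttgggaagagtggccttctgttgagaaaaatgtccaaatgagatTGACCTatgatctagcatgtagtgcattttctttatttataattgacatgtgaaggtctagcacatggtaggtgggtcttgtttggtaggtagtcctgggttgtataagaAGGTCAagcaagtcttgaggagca

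The inverted repeat with up to 1 mismatch was found in 2 of the 8 members searched, Abcb11 and Slco1b2. It was found in 0.0962% of the 27025 genes in the table, and in 0.0791% of all 32851 promoter windows of this length. In Abcb11 the match AGGCCATTGACCT began at -63, counted back from the start site, and differed from the repeat by T4C, counted from 1 at the 5′ end of the repeat. In Slco1b2 the match AGGACAGTGACCT began at -88 and differed by T4A. An exact hexamer lay in a window of 6 of the 8 members with one, against 15.8% of the 27025 genes in the table. No match lay in the Nr0b2 or the Abcb4 window, which says only that these letters are not in those bases. A match is a sequence, not a measured binding site.

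The arrays were alike in level, with medians between 2.67 and 2.73, and any 2 of them correlated at 0.983 to 0.988 over all probe sets. Gpr146 was at 5.72 ± 0.21 in WT and 4.25 ± 0.37 in KO (SD, n = 3 each), with every KO mouse below every WT mouse (limma adjusted p = 0.0702). The hepatocyte marker Alb was at 11.92 ± 0.02 in WT and 11.91 ± 0.01 in KO, and the summed signal of 9 hepatocyte markers ran from 14.44 to 14.48 in WT and from 14.45 to 14.50 in KO. The Kupffer markers summed to 8.79 to 9.47 in WT and 8.89 to 9.50 in KO, the sinusoidal endothelial markers to 8.92 to 9.19 and 8.95 to 9.10, and the stellate markers to 8.85 to 9.24 and 8.88 to 9.12. Clec4f was at 6.46 and 6.69, Lyve1 at 4.90 and 5.07 and Lrat at 5.39 and 5.40 (WT and KO means), while Hgf differed by -0.34 ± 0.12 (SE; limma adjusted p = 0.442).

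KO livers had more signal for Nr0b2 and Abcb11 in every mouse, but no member passed the test over all genes. At a limma adjusted p under 0.05, 0 of the 10 members were called, where 0.0361% of all genes tested were. At an unadjusted limma p under 0.05, 2 members were higher and 0 lower, where 6.16% of all genes were higher and 2.98% lower. The groups did not overlap in the same 2 members, both with KO above WT, where 9.63% of all genes had every KO above every WT mouse and 5.16% every KO below. The difference was positive in 7 of the 10 members, against 57.7% of all genes, and the median of the 10 was 0.072, against 0.027 over all genes. In a bulk sample, fewer cells of a type and less RNA per cell cannot be told apart.

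**Figure D1:**
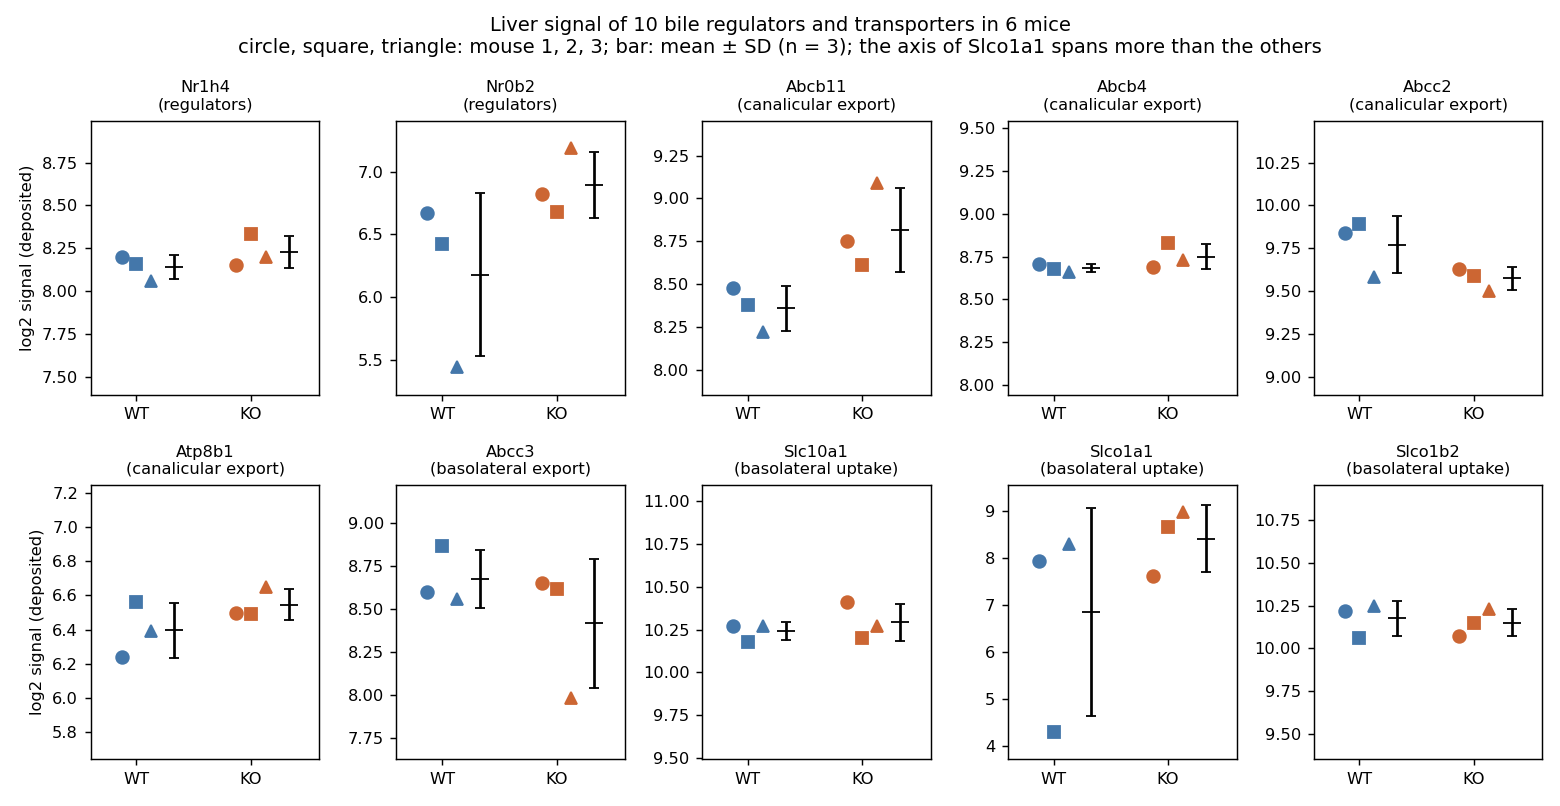
Deposited log2 signal (vertical axis) of the 10 members in 3 WT (blue) and 3 KO (orange) mice; circles, squares and triangles are mice 1, 2 and 3, and the black bar is the mean ± SD. Nr0b2 and Abcb11 are the members whose KO points all lie above the WT points, and 1 WT mouse is far below the rest in Slco1a1, whose axis spans more than the others.

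Of the regulators, Nr0b2 encodes SHP. In the order of the mice's numbers, its signal was 6.67, 6.42 and 5.44 in WT and 6.82, 6.68 and 7.19 in KO, and values below follow the same order. WT mouse 3 lay well under the other 5 mice, while KO mouse 2 was barely above WT mouse 1. SHP signal in KO thus exceeded WT by 0.72 ± 0.29 (SE), or 1.64-fold, with a 95% interval of 0.06 to 1.38 and a limma adjusted p of 0.509. The unadjusted limma p was 0.0363, and the exact two-sided permutation test gave 0.1, which is the lowest p it can reach with 3 mice a group. Without WT mouse 3 it was 0.35 ± 0.17 (limma adjusted p = 0.602). Among WT mice Nr0b2 varied more than 99.1% of the genes tested, by SD, and among KO mice more than 90.8%.

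Nr1h4 encodes FXR itself, the receptor upstream of SHP. It measured 8.20, 8.16 and 8.06 in WT and 8.15, 8.33 and 8.20 in KO, and the groups overlapped. The difference was 0.08 ± 0.10 (SE), with a 95% interval of -0.14 to 0.30 (limma adjusted p = 0.840).

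At the canalicular membrane, Abcb11 is the bile salt export pump, the step that limits bile salt secretion. It was at 8.48, 8.38 and 8.22 in WT and 8.75, 8.61 and 9.09 in KO. Each KO mouse exceeded each WT mouse, KO mouse 3 by the most, and WT mouse 3 was the lowest, as it was for Nr0b2. The difference was 0.45 ± 0.14 (SE), or 1.37-fold higher in KO, with a 95% interval of 0.14 to 0.77, a limma adjusted p of 0.389 (unadjusted limma p = 0.0101) and an exact permutation p of 0.1. It stayed between 0.32 and 0.56 in the 15 alternative settings, with the lowest value when KO mouse 3 was left out. The promoter shown above holds a match to the inverted repeat at -63, with 1 mismatch. Slco1b2, the other member with such a match, differed by -0.02. Whether these matches bear on either difference was not tested.

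Abcb4 moves phosphatidylcholine into the outer canalicular leaflet, and Atp8b1 is the flippase that keeps that membrane asymmetric. Abcb4 was the steadiest member in WT, at 8.71, 8.68 and 8.66, and measured 8.69, 8.83 and 8.73 in KO. Its difference was 0.06 ± 0.09 (SE; 95% interval -0.14 to 0.26; limma adjusted p = 0.878), with overlapping groups. Atp8b1 was at 6.24, 6.56 and 6.39 in WT and 6.50, 6.49 and 6.65 in KO. Its difference of 0.15 ± 0.11 (SE; 95% interval -0.10 to 0.40; limma adjusted p = 0.706) was within the spread of the WT mice, which covered 0.31. Leaving out WT mouse 1 gave 0.07, and leaving out WT mouse 2 gave 0.23.

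Abcc2 exports conjugated bilirubin and other organic anions into bile. It was at 9.84, 9.89 and 9.58 in WT and 9.63, 9.59 and 9.50 in KO, so 2 WT mice were above all KO mice and WT mouse 3 lay among them. The difference was -0.19 ± 0.11 (SE; 95% interval -0.44 to 0.06; limma adjusted p = 0.631), opposite in sign to the other 3 canalicular genes. Without WT mouse 3 it was -0.29 (limma adjusted p = 0.471).

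Abcc3 sits on the basolateral side and exports conjugates and bile salts back to blood. It was at 8.60, 8.87 and 8.56 in WT and 8.65, 8.62 and 7.98 in KO. KO mouse 3 alone was low, and the other KO mice lay inside the WT range. The difference was -0.26 ± 0.18 (SE; 95% interval -0.67 to 0.16; limma adjusted p = 0.695), -0.04 without KO mouse 3 and -0.16 without WT mouse 2. Bile duct cells also express Abcc3. Of 12 bile duct markers, 3 were tested, 7 lay below the signal filter, Krt19 (2.43 in WT and 2.38 in KO) and Epcam (2.85 and 2.76) among them, and 2 had no single-gene probe set. The 10 measured markers summed to 6.81 to 6.99 in WT and 7.11 to 7.22 in KO, with Sox9 at 0.41 ± 0.14 (SE; limma adjusted p = 0.437); the part of such cells in the values of the members was not tested.

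**Figure D2:**
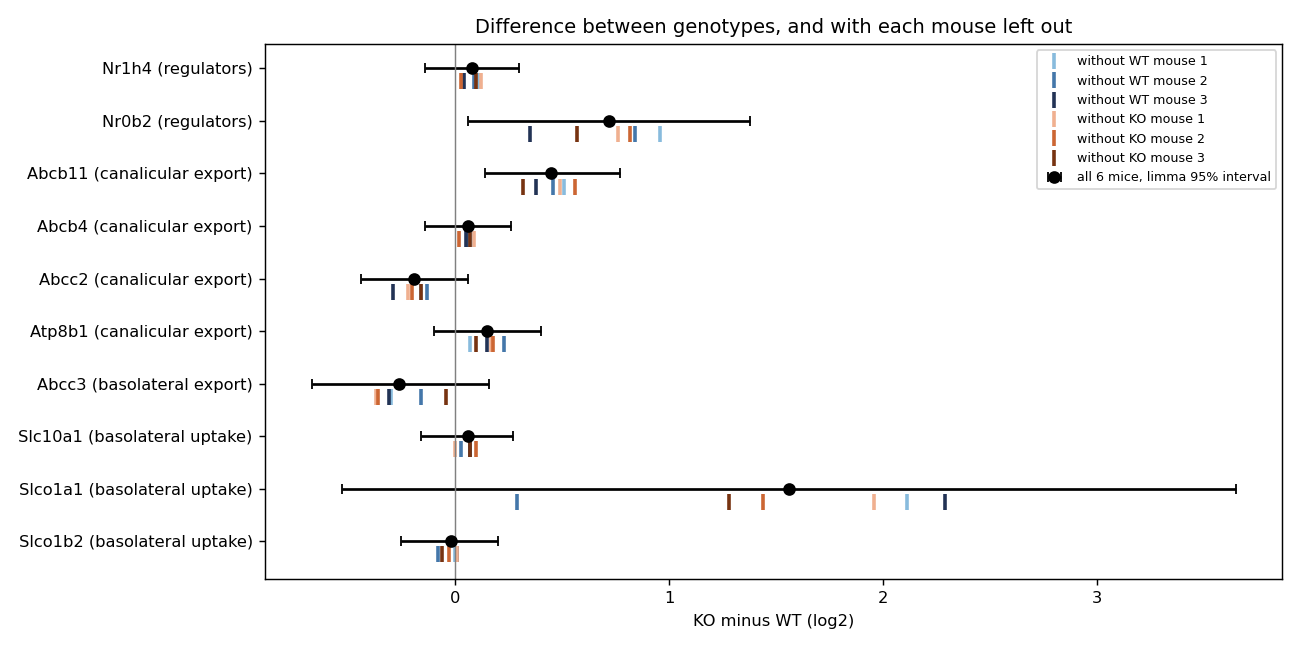
KO minus WT (log2, horizontal axis) for each member, with the point and limma 95% interval from all 6 mice in black and a coloured tick for the difference with each mouse left out. The intervals of Nr0b2 and Abcb11 lie above 0, from 0.06 and 0.14 upwards, before adjustment over all genes; the tick of Slco1a1 without WT mouse 2 stands at 0.29, far from its point at 1.56.

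Basolateral uptake is carried by the sodium-dependent Slc10a1 (NTCP), which takes up conjugated bile salts, and by the sodium-independent organic anion transporters Slco1a1 and Slco1b2. Slc10a1 was at 10.27, 10.18 and 10.27 in WT and 10.41, 10.20 and 10.27 in KO. Slco1b2 was at 10.22, 10.06 and 10.25 in WT and 10.07, 10.15 and 10.23 in KO. Both sets of values overlapped between genotypes, with differences of 0.06 ± 0.10 for Slc10a1 (SE; 95% interval -0.16 to 0.27; limma adjusted p = 0.903) and -0.02 ± 0.10 for Slco1b2 (SE; 95% interval -0.25 to 0.20; limma adjusted p = 0.960).

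Slco1a1, a transporter that male mouse liver expresses at higher levels than female liver, had the largest difference of the members and the least certain one. It was at 7.94, 4.31 and 8.30 in WT and 7.61, 8.66 and 8.97 in KO. WT mouse 2 lay 3.30 below the next lowest mouse, a signal 9.84-fold lower, and the other 5 mice overlapped between genotypes. The difference was 1.56 ± 0.92 (SE; 95% interval -0.53 to 3.65), 2.95-fold higher in KO, with a limma adjusted p of 0.637 and an exact permutation p of 0.3. Without WT mouse 2 it was 0.29 ± 0.36 (limma adjusted p = 0.840), and without WT mouse 3 it was 2.29 (limma adjusted p = 0.495). By SD among WT mice, Slco1a1 varied more than 99.9% of the genes tested.

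The low Slco1a1 of WT mouse 2 went with other sex-biased liver genes in that animal. Of 12 other male-biased genes tested, 10 were lowest in WT mouse 2. Of 14 female-biased genes listed, 11 had a single-gene probe set and 4 passed the signal filter. All 4 were highest in WT mouse 2. The filter takes the mean over all 6 mice, so a weak gene that is high in that mouse passes more easily. The count for the female-biased genes is thus in part a matter of selection. Hsd3b5, a male-specific steroid dehydrogenase, was at 5.52, 1.51 and 6.69 in WT and 3.24, 7.35 and 7.74 in KO, and Cyp2b9, a female-predominant P450, was at 7.38, 10.32 and 4.61 in WT and 8.43, 5.13 and 5.41 in KO; both were named after their values were seen. The median deviation of the male-biased list from its WT means was 0.18, -0.56 and 0.34 in WT and -0.23, 0.22 and 0.97 in KO. For the female-biased list it was -0.06, 0.68 and -0.73 in WT and 0.08, -0.65 and -1.32 in KO. KO mouse 3, highest in Slco1a1, was the highest mouse for 11 of the 12 male-biased genes. The share of all genes tested that have their extreme in the same mouse was not counted for any of these lists. By genotype, Elovl3 differed by 0.70 ± 0.26 (SE; limma adjusted p = 0.469) and Acot3 by -1.13 ± 0.39 (limma adjusted p = 0.437), and the part of these lists in the difference of Slco1a1 was not tested beyond leaving the mouse out.

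**Figure D3:**
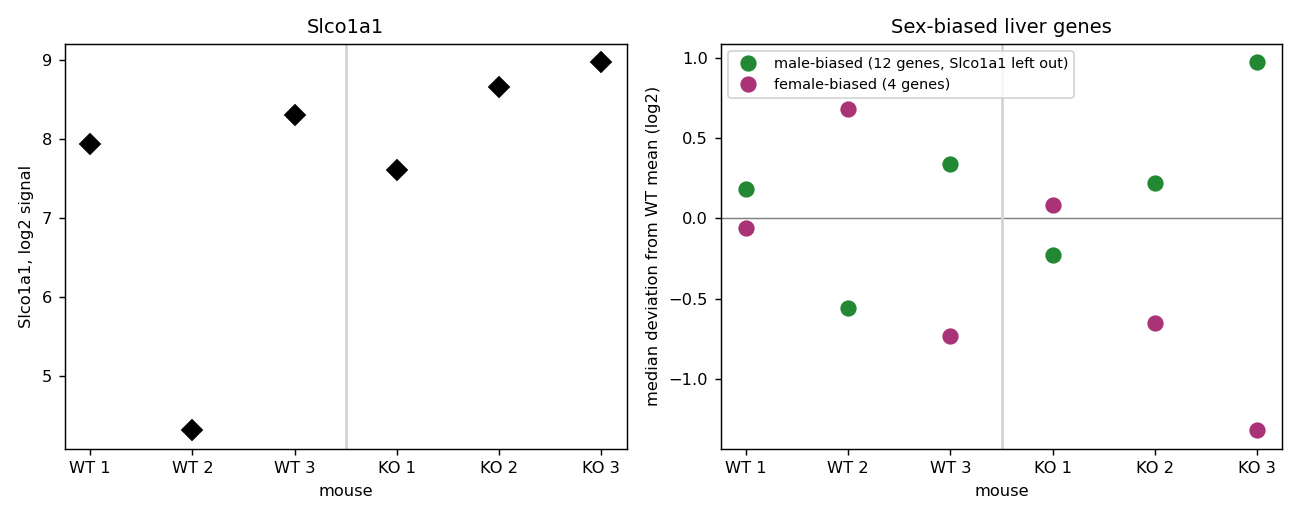
Left, log2 signal of Slco1a1 in each mouse; right, the median deviation from the WT mean (log2) of 12 male-biased genes without Slco1a1 (green) and 4 female-biased genes (purple) in the same mice. WT mouse 2 is lowest in Slco1a1 at 4.31, lowest in the male-biased median at -0.56 and highest in the female-biased median at 0.68, and KO mouse 3 is at the other end of all 3.

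Set against each other by their medians, canalicular export and basolateral uptake did not part by genotype beyond the spread between mice. For the 4 canalicular genes (Abcb11, Abcb4, Abcc2 and Atp8b1) the median difference was 0.106, with 3 positive and 1 negative. For the 3 uptake genes it was 0.056, with 2 positive and 1 negative, and export minus uptake was 0.051. Taken mouse by mouse as the median deviation from the WT means, export was 0.05, 0.07 and -0.08 in WT and 0.05, 0.12 and 0.15 in KO. Uptake was 0.05, -0.12 and 0.07 in WT and 0.17, -0.02 and 0.05 in KO. Export minus uptake was then 0.01 ± 0.17 in WT and 0.04 ± 0.14 in KO (SD, n = 3 each), and the mice of both genotypes were interspersed. The canalicular median lies between Abcb4 at 0.06 and Atp8b1 at 0.15, with Abcb11 at 0.45 and Abcc2 at -0.19 as the extremes. The uptake median is the difference of Slc10a1, with Slco1a1 at 1.56 and Slco1b2 at -0.02 as the extremes. The size of the Slco1a1 difference therefore does not enter that median.

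**Figure D4:**
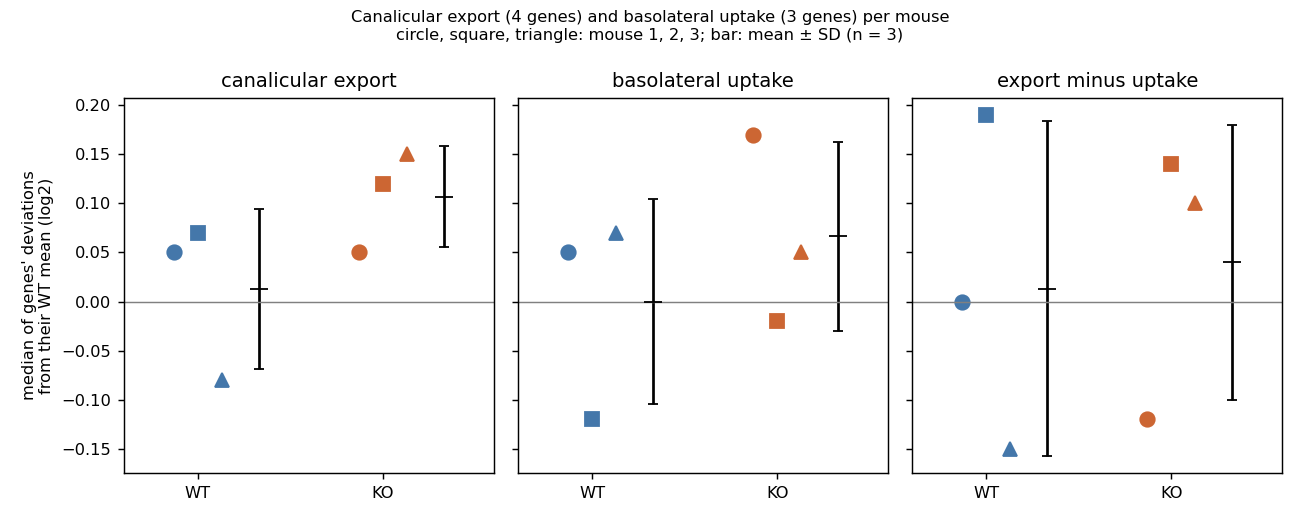
Median of the genes' deviations from their WT means (log2, vertical axis) for canalicular export, basolateral uptake and their difference, per mouse (WT blue, KO orange; circle, square and triangle for mice 1, 2 and 3; bar for mean ± SD). In the right panel the WT mice run from -0.15 to 0.19 and the KO mice from -0.12 to 0.14, so the genotypes overlap.

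Across members, WT mice 2 and 3 and KO mouse 3 held most of the extremes. KO mouse 3 was the highest of the 6 in 4 members (Nr0b2, Abcb11, Atp8b1 and Slco1a1) and the lowest in 2 (Abcc2 and Abcc3). WT mouse 3 was the lowest in 4 (Nr1h4, Nr0b2, Abcb11 and Abcb4), so both regulators and the export pump were lowest in the same WT animal. WT mouse 2 was the lowest in all 3 uptake genes and the highest in Abcc2 and Abcc3. The same KO mouse 3 was also the highest in 7 of 10 Kupffer markers, with a median deviation of 0.56 from their WT means. WT mouse 1 was the highest in the other 3, with a median deviation of 0.27, and WT mouse 3 was the lowest in 5. The part of these markers in the values of Nr0b2 and Abcb11 was not tested. These ranks describe the animals and were not tested, and the share of all genes with their extreme in each mouse was not counted.

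The genes whose profiles over the 6 mice were closest to Nr0b2 and to Abcb11 were found by the mean absolute difference of deviations from each gene's own mean. Only tested genes with an ordinary symbol were ranked, which leaves out Rik, LOC and Gm followed by digits. For Nr0b2 they were Pilrb1 (0.165), Fgf21 (0.18), a hormone that liver secretes in fasting and other nutrient stress, and Pld4 (0.192). Fgf21 was at 5.48, 5.56 and 3.87 in WT and 5.69, 5.27 and 6.03 in KO, with WT mouse 3 low and KO mouse 3 high as in Nr0b2. For Abcb11 they were Kdm6a (0.05), a histone demethylase, Abca2 (0.061), a lipid transporter of the ABC family, and Dmxl2 (0.062). Kdm6a was at 4.45, 4.41 and 4.21 in WT and 4.61, 4.59 and 4.99 in KO. Nr0b2 and Abcb11 lay 0.243 apart from each other by the same measure, over 6 mice. This made Abcb11 number 23 in closeness to Nr0b2, but Nr0b2 only number 5269 in closeness to Abcb11. The measure is not scaled to a gene's spread, and the WT SD was 0.65 for Nr0b2 and 0.13 for Abcb11. The ranks therefore do not say how alike the 2 profiles are in shape.

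Other genes of bile acid physiology were counted in 5 lists, and none had a member past limma's adjusted threshold over all genes. At an unadjusted limma p under 0.05, 6.16% of all genes tested were higher in KO and 2.98% lower. Of 15 other bile and sterol transporters tested, 0 had an unadjusted limma p under 0.05, and the median was 0.036. The one of smallest p, Slco1a4, an uptake transporter related to Slco1a1 and more abundant in females, was at 6.89, 7.47 and 6.44 in WT and 6.69, 6.44 and 5.94 in KO, highest in WT mouse 2 (difference -0.58 ± 0.27 SE; limma adjusted p = 0.564). Whether probes of such related transporters share targets was not tested. Of 12 synthesis and conjugation enzymes, 0 had an unadjusted limma p under 0.05, with a median of 0.033. Cyp2c70, which makes the muricholic acids of mice, had the smallest p at 0.47 ± 0.26 (SE; limma adjusted p = 0.625).

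Among 14 FXR partners and other genes of hepatic bile acid signalling, the median was 0.045. At an unadjusted limma p under 0.05, 1 was higher in KO and 0 lower, against 6.16% and 2.98% of all genes. The higher one was Nr1i2, the xenobiotic receptor PXR, at 7.30, 7.39 and 7.12 in WT and 7.44, 7.63 and 7.71 in KO. Its groups did not overlap, and the difference was 0.32 ± 0.11 (SE; limma adjusted p = 0.442). The FXR partner Rxra was at 0.17 ± 0.11 (limma adjusted p = 0.668), named after its value was seen.

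Of 16 other FXR target genes tested, 1 was higher and 0 lower by the same measure, against 6.16% and 2.98% of all genes. Scarb1, the hepatic receptor for high-density lipoprotein, differed by 0.30 ± 0.12 (SE; limma adjusted p = 0.508), from 8.01, 8.31 and 8.20 in WT to 8.51, 8.30 and 8.61 in KO, with overlap of 1 mouse. The median of the list was 0.027, the same as over all genes.

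Of 13 proteins of the canaliculus and its junctions, 1 was higher and 0 lower, against 6.16% and 2.98% of all genes. The median was 0.039. The higher one was Cldn1, a claudin of the tight junction that seals the canaliculus, at 7.36, 7.55 and 7.44 in WT and 8.04, 7.90 and 7.85 in KO. The gap between the genotypes was wider than the range within either, and the difference was 0.48 ± 0.10 (SE), with a limma adjusted p of 0.277. The genotypes did not overlap, with KO above WT, in 2 of the 15 transporters, 1 of the 12 enzymes, 1 of the 14 partners, 3 of the 16 targets and 1 of the 13 junction proteins, where 9.63% of all genes had KO above. With KO below WT, 1 junction protein, Myo5b, did not overlap, where 5.16% of all genes had KO below. Beside the members, whose median was 0.072, the 5 lists had medians of 0.027 to 0.045, close to the 0.027 of all genes tested.

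**Figure D5:**
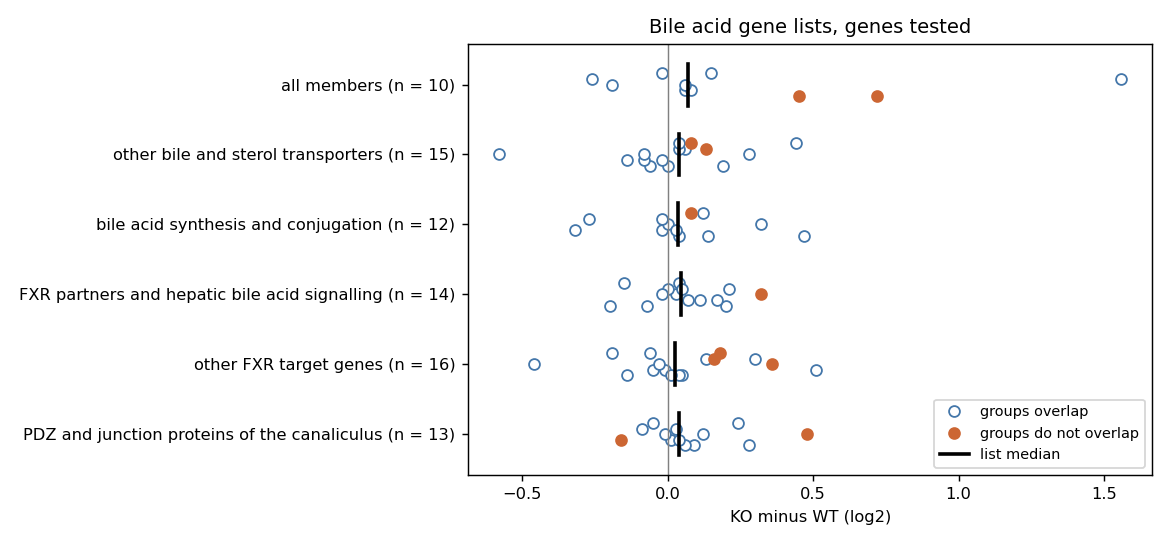
KO minus WT (log2, horizontal axis) for the tested genes of each list; filled points are genes whose WT and KO mice do not overlap, open points the others, and black bars the list medians. The medians lie between 0.027 and 0.072, with Nr0b2 and Abcb11 as the filled points of the members and Cldn1 as the filled point at 0.48 among the junction proteins.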

How the data were processed

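The authors deposited 1 table of log2 signals for 41345 probe sets in 6 mice. That the unit is log2 follows from the values, whose maxima are 12.11 to 12.23; how signals were summarised and normalized is not stated in the labels. Per the labels' protocols, total RNA was extracted with Trizol and biotinylated cRNA made from 100 ng. All 6 columns matched a mouse by name. Genes were named from the platform annotation, updated through Entrez numbers: 23521 probe sets had 1 symbol, 1814 several and 16010 none. The probe set of highest mean stood for a gene, and genes at or above 2.99 were tested. KO and WT were compared with limma 3.58.1 in R 4.3.3 (lmFit, eBayes, two-sided, no covariate), with Benjamini-Hochberg adjustment over all 11090 genes at 0.05; the fit was tested on simulated data. Single members were also compared by an exact permutation test. Background makes folds of weak array signals too small, and precision is limited by the 3 mice a group. The members, lists and tests were chosen with earlier results of these data known. Named genes are the members, Gpr146, Alb, 3 genes most like Nr0b2 and 3 most like Abcb11, in each of the 5 pathway lists up to 4 genes of unadjusted p under 0.05 or, with none, the one of smallest p, and in the marker and sex-biased lists up to 2 genes of unadjusted p under 0.05, plus defining markers. Genes outside this rule (Hsd3b5, Cyp2b9, Rxra, Myo5b, Cyp7a1, Cyp8b1, Cyp7b1 and Slc22a7) were named after their values were seen.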

Additional observations from a re-analysis of the deposited data

How the results depend on the processing

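No member was called in any of the 15 alternatives, in which limma's smallest adjusted p of a member was 0.302, and 1 to 3 members had an unadjusted p under 0.05. Abcb11 was among these in all 15 and Nr0b2 in 10. Over all genes, 4 were called with all 6 mice, 0 among the upper 25% of signal (limma; 567 at an unadjusted p under 0.05), 1 with a pseudocount of 16 and 1 to 51 with a mouse left out; the 51 came without WT mouse 3. The causes were not tested. With the replicate number as a block, 1 gene was called and Nr0b2 had an unadjusted limma p of 0.0503. Same-numbered mice of the 2 genotypes deviated together at correlations of 0.06, -0.19 and 0.15, and not every mouse correlated best with its own number. With 3 mice a group, these correlations cannot decide whether the numbers mark pairs. The main fit did not take them as pairs. Of 150 recomputed member differences, 3 turned sign, all near 0: Slco1b2 ran from -0.08 to 0.01 with a mouse left out and Slc10a1 from -0.0036 to 0.10. The canalicular median ran from 0.07 to 0.15, the uptake median from 0.01 to 0.10 and their difference from -0.0022 to 0.12.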

Other observations

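Of the 12 bile acid synthesis and conjugation genes, KO mouse 3, the mouse highest in Nr0b2 and Abcb11, was the highest of the 6 mice in 6 and the lowest in 2, with a median deviation from the WT means of 0.11. These ranks were not tested, and the share over all genes was not counted. The 2 were Cyp7a1 and Cyp8b1. Cyp7a1, the rate-limiting enzyme of bile acid synthesis, was at 9.05, 9.06 and 9.15 in WT and 8.82, 9.15 and 8.33 in KO, and Cyp8b1, which makes cholic acid, was at 8.74, 9.16 and 8.96 in WT and 9.06, 8.78 and 8.21 in KO. The groups overlapped in both (limma adjusted p = 0.631 and 0.722). Cyp7b1, a male-biased enzyme of the alternative pathway, was instead highest in that mouse at 9.09 and lowest in WT mouse 2 at 7.33. The anion transporter Slc22a7 had the same extremes, at 7.23 and 5.19. These genes were picked after their values were seen.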
